A study of Caenorhabditis elegans with 2 samples.

Results

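Small nuclear RNA (snRNA) genes other than the spliced leader genes were taken as all genes of biotype snRNA on the nuclear chromosomes of the Ensembl WBcel235 annotation whose name does not begin with sls-. There were 99, out of 129 snRNA genes and 46890 nuclear genes of all biotypes; the remaining 30 snRNA genes were sls genes. For each gene, the strongest candidate binding region of ZTF-3, a zinc finger protein, was sought with its summit within 500 bp of the gene. Binding had been mapped by chromatin immunoprecipitation and sequencing (ChIP-seq) with an antibody to GFP. The only group had 2 biological replicates, labelled 4 and 5, of strain OP614, genotype unc-119(tm4063); wgIs614. The integrated transgene wgIs614 carries ztf-3 joined to a TY1, EGFP and 3xFLAG tag, together with unc-119(+). Worms were pooled males and females, harvested whole as young adults of 58 h after synchrony had been set by starving bleached broods at the first larval stage. The tagged copy came from a transgene, all tissues were mixed, and no untagged strain or other condition was analysed here, so no comparison of conditions was made.

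Spliceosomal snRNAs fold into short structured RNAs that base-pair with the ends of introns and with each other. Most bind a ring of Sm proteins at a uridine-rich site and are made by RNA polymerase II, while U6 snRNA binds an LSm ring and is made by RNA polymerase III. Promoters of both kinds carry a proximal sequence element read by the SNAPc complex, and in many animals a TATA box also stands before U6 genes. Nematodes also have SmY RNAs, small Sm-bound RNAs linked to trans-splicing, encoded by the smy genes.

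The 7 regions that passed the authors' threshold lay at 8 of the 99 genes, and the 100 bases before 7 of these genes are shown because they differ in 2 short sequences (ce11, which is the WBcel235 assembly, 5′ to 3′ on the gene's strand). Capitals mark CGNAACCC, where N is any base, and TATATAA. The eighth gene, mir-1831, lies inside sup-39 on the same strand, and has a microRNA name although its biotype is snRNA.
W05B2.8 (III:10989579-10989678, plus strand): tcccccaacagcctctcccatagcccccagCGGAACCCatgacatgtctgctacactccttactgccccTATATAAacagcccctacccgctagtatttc
F54D8.7 (III:5080899-5080998, minus strand): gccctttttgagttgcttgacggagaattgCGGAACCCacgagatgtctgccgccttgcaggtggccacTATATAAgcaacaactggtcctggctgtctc
M163.13 (X:14476767-14476866, plus strand): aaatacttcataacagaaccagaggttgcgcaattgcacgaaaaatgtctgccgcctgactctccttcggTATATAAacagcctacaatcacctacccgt
sup-6 (II:12944968-12945067, minus strand): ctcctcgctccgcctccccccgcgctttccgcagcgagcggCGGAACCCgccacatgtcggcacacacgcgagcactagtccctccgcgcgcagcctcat
sup-39 (II:6968559-6968658, minus strand): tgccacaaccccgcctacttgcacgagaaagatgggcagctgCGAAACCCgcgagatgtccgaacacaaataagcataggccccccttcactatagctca
F38E11.10 (IV:9444542-9444641, plus strand): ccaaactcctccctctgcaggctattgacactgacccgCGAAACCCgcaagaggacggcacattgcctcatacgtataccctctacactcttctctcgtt
C52E4.8 (V:11980018-11980117, plus strand): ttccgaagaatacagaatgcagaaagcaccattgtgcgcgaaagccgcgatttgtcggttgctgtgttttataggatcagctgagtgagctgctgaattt

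The annotated genes themselves fell into families of similar copies (identity of 70% or more), and members of 4 families are shown, with M163.13, which aligned to no other member at that level. Capitals mark ACTTACCT, letters complementary to a 5′ splice site, and AATTTTTG, letters of an Sm-binding site. A match is a description of the letters and was not used to name a family.
M163.13 (X:14476867-14476946, plus strand): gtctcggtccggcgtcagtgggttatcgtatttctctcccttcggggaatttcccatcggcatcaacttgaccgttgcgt
sup-6 (II:12944803-12944967, minus strand): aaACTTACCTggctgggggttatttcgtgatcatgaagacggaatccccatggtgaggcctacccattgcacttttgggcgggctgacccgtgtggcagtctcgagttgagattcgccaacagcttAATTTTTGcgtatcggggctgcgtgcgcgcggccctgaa
sup-39 (II:6968394-6968558, minus strand): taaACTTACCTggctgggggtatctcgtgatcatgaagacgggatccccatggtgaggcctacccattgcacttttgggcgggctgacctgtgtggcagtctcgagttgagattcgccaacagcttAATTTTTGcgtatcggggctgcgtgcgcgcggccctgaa
C52E4.8 (V:11980118-11980261, plus strand): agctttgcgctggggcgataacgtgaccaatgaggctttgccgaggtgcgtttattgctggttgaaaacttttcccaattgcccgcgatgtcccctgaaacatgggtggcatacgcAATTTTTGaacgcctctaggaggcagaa
Y57G11C.35 (IV:14764848-14765034, minus strand): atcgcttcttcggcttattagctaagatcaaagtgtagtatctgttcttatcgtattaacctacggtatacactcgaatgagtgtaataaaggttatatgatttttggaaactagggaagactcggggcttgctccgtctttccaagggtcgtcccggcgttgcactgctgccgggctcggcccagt
smy-1 (IV:9511763-9511839, minus strand): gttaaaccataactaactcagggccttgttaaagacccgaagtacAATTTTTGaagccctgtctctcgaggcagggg

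Of the 99 genes, 52 had a pooled candidate region within 500 bp, which is 52.5% (exact binomial 95% interval 42.2% to 62.7%, counting error only), against 40.7% of all nuclear genes. Without piRNA genes, of which 8.93% had a region, the share of nuclear genes was 56.1%, inside the snRNA interval. Counted from the gene start alone, the snRNA share was 50.5%, against 25% of all nuclear genes and 33.0% without piRNA genes. Candidate lists hold peaks together with background, so a candidate region is not by itself a binding site. The pooled list, made from both replicates, held 30000 regions, of which 1.78% were in the thresholded list. A further 47 genes had no pooled region, and 35 of the 99 had no region in any list.

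Thresholded regions lay near 8 genes, or 8.08% (3.55% to 15.3%), against 1.83% of all nuclear genes and 2.67% without piRNA genes. Measured from the gene start, the same 8 genes were found, against 1.2% of all nuclear genes. Since mir-1831 and sup-39 shared 1 region, the 8 genes stood for 7 regions; without mir-1831 the count was 7. The genes were W05B2.8, sup-6, F38E11.10, M163.13, F54D8.7, C52E4.8, sup-39 and mir-1831. They were spread over chromosomes II, III, IV, V and X, and none of the 12 members on chromosome I was among them. No tRNA, snoRNA, miRNA or sls gene lay within 500 bp of any of the 8, and such a gene lay near only 3 of all 99.

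Among the 52 genes with a region, the pooled signal, the authors' own strength value per region, ran from 20.4 to 183 with a median of 34.8. Over all genes with a pooled region, the median was 31.6. The median rank was 7701 among the 30000 pooled regions, where rank 1 is the strongest. Most snRNA genes with a region therefore stood well below the thresholded list, whose lowest signal was 74.7.

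**Figure D1:**
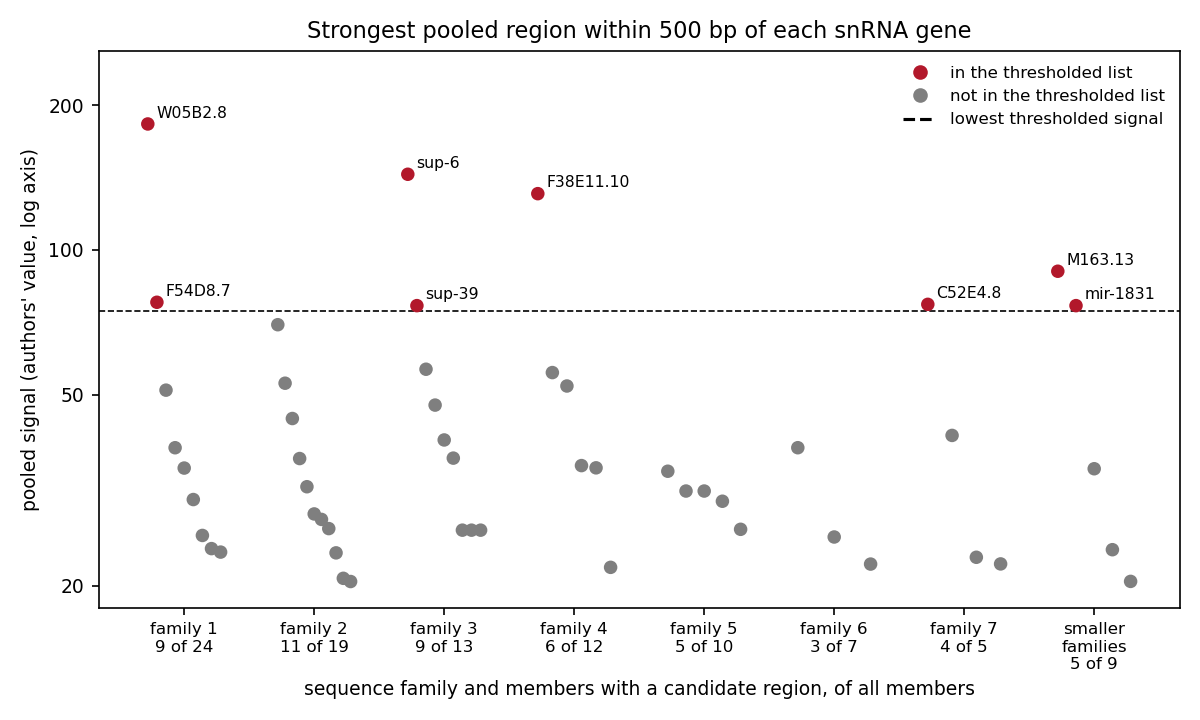
Pooled signal (log axis) of the strongest region within 500 bp of each of the 52 snRNA genes that had one, by sequence family; each point is a gene, red points are thresholded, the dashed line is the lowest thresholded signal, and the counts give genes with a region of all members. Families 1, 3, 4 and 7 each reach above 74.7 with 1 or 2 genes, as do M163.13 and mir-1831 of the smaller families, while families 2, 5 and 6 stay below it.

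Global alignment at 70% identity or more sorted the 99 genes into 15 families, 7 of them with 5 or more members and holding 90 genes. The families were numbered by size. Only 74 of the 99 gene sequences were distinct, and 32 genes had a sequence identical to that of another member. Thresholded regions lay in 6 families, or in 5 without mir-1831, which formed a family of its own because of its length of 22 bp.

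Family 1 had 24 members of 93 to 108 bp. W05B2.8, in an intron of the dynein heavy chain gene dhc-4 at III:10989679-10989780, had the strongest region of all snRNA genes studied. Its pooled signal was 183 at rank 45; the region holding that summit had a signal of 150 in replicate 4 and 41.2 in replicate 5, at ranks 36 and 92. It was thus near the top of every list. F54D8.7 at III:5080798-5080898, whose sequence aligned to that of W05B2.8 at 100% identity apart from an end gap of 1 base, had a pooled signal of 77.8 at rank 469. In replicate 4 it stood at rank 456 with a signal of 60.2, and in replicate 5 at rank 979 with 21.2. It lay outside protein-coding genes. The nearest protein-coding start was that of cox-6A, which encodes a cytochrome c oxidase subunit, with the summit at −789 bp from it. The protein-coding gene within 500 bp was alh-1. The other 7 family 1 genes with a region stood lower, and 15 of the 24 had none; the group's share with a region was 37.5%. The strongest of these 7, a copy on chromosome IV, had a pooled signal of 51.1 at rank 1873, with rank 1404 in replicate 4 and 21140 in replicate 5.

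Copies of the same gene sequence differed in the strength of their regions, as W05B2.8 and F54D8.7 did. K09B11.11 aligned to W05B2.8 at 100% identity over the gene and at 49% over the 100 bases before it. Over those bases, identity to W05B2.8 was 54.5% for thresholded F54D8.7 and 55.4% for the family 1 copy at rank 1873. For M163.13, which is not in family 1, it was 51.5%, so these values did not separate strong from weak copies. K09B11.11, one of 6 family 1 genes within K09B11, had a pooled signal of 25.4 at rank 18938. Its summit lay at 199 bp, past the gene end, and no replicate 5 region held it. Of those 6 genes, 2 had a region, and of the 3 family 1 genes in F54C8 none had. The bases before K09B11.11 are shown for comparison with those of W05B2.8, with capitals on TATATAA, and they do not hold CGNAACCC. Of the 31-letter words in the 500 bp before the gene, 19.6% occurred once in the genome at K09B11.11 and 100% at W05B2.8.
K09B11.11 (IV:13435887-13435986, minus strand): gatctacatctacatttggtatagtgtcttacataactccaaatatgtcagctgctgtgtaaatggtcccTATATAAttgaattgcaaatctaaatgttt

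Family 2 had 19 members of 185 to 187 bp, each holding the letters ATTTTTG. A pooled region lay near 11 of them, 57.9%, and none was thresholded. The strongest, Y57G11C.35 at IV:14764848-14765034, was the gene just outside the threshold, with a pooled signal of 69.9 at rank 649, against 76.6 at rank 491 for sup-39 and mir-1831 just inside it. Its ranks were 706 in replicate 4, with a signal of 52.7, and 968 in replicate 5, with 21.2. In replicate 5 it therefore ranked above F54D8.7, C52E4.8 and sup-39. F11A5.14 followed with a pooled signal of 52.8, ranked 1760 in replicate 4 and 12445 in replicate 5.

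Family 3 had 13 members of 156 to 170 bp, of which 12 held ACTTACCT and 12 held AATTTTTG. Its named members sup-6 and sup-39 are known from genetics as U1 snRNA genes in which mutations restore splicing at altered 5′ splice sites. sup-6, in an intron of F58G1.7 at II:12944803-12944967, had a pooled signal of 144 at rank 87. Its region stood at rank 85 in replicate 4 with a signal of 106 and at rank 98 in replicate 5 with 39.7. sup-39 at II:6968394-6968558, in C15F1.5, had a pooled signal of 76.6 at rank 491. Its replicate 4 region had a signal of 65.9 at rank 343, whereas the replicate 5 region was at 7.73 and rank 25233. The pair differed in how far the replicates matched, since sup-6 was near the top of both lists and sup-39 of 1 only. The genes were 97.6% identical, and the 100 bases before them 57.4%. In all, 9 of the 13 had a region, 69.2%. Next in the family came H27M09.6 at I:6847137-6847303, with a pooled signal of 56.4 at rank 1280 and ranks of 1175 and 3935 in replicates 4 and 5.

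Family 4 had 12 members of 117 to 126 bp, and 6 of them had a region. F38E11.10 at IV:9444642-9444763 had a pooled signal of 131 at rank 104, with 101 in replicate 4 at rank 93 and 31.0 in replicate 5 at rank 227. F38E11.11 aligned to it at 100% identity over the gene and 56.9% over the 100 bases before it. That copy, on the same chromosome, had a pooled signal of 35.2 at rank 7430, about where the median snRNA gene with a region stood. F32B5.9, in the cathepsin Z-like protease gene cpz-1, reached 55.5, with ranks of 1128 and 1375 in replicates 4 and 5. C53D6.12 reached 52.1, with ranks of 1104 and 12696, and had a tRNA gene within 500 bp.

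Family 7 had 5 members of 142 to 144 bp, all with AATTTTTG and all on chromosome V, and 4 of them had a region. C52E4.8 at V:11980118-11980261 had a pooled signal of 77.0 at rank 486. Replicate 4 gave 64.9 at rank 362 and replicate 5 gave 15.8 at rank 3210. Its summit lay at −657 bp from the start of snr-4, which encodes an Sm core protein, so 1 region was counted for an snRNA gene and for a gene of the Sm ring. The protein-coding gene within 500 bp was rpt-1. T11F9.15, with a gene sequence 100% identical to that of C52E4.8, had a pooled signal of 41.1, and its ranks were 20397 in replicate 4 and 1820 in replicate 5.

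No region near a gene of family 5 or family 6 was thresholded. Family 5 held the 10 smy genes of snRNA biotype, 5 of them with a region, and signals of 26.2 to 34.6. The highest was at smy-1, which had smy-2, of snoRNA biotype, within 500 bp, and ranked 15004 in replicate 4 and 1659 in replicate 5. Family 6 had 7 members, all on chromosome V, and 3 with a region; its strongest, T10H4.16, had a pooled signal of 38.7 and no replicate 5 region. Of the 9 genes in smaller families, M163.13 at X:14476867-14476946 was the strongest. It had a pooled signal of 90.3 at rank 297, 68.8 in replicate 4 at rank 306 and 23.8 in replicate 5 at rank 623. A second replicate 5 region, 559 bp past the gene start, was stronger, at 28.0 and rank 323. mir-1831, through the region it shares with sup-39, followed at 76.6. Below the threshold were F20D1.21 at 35.02, F56A12.5 at 23.8 and W07G1.24 at 20.4.

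Replicate support of the snRNA genes' regions was set beside that of all regions. Of the 52 genes with a pooled region, the pooled summit lay in a region of both replicates for 25 (48.1%), of replicate 4 alone for 18, of replicate 5 alone for 6, and of neither for 3. The share in both was 43.0% over the strongest pooled region of every nuclear gene that had one, and 35.1% over all pooled regions. Among the 25, the ranks in the 2 lists had a Spearman correlation of 0.36, against 0.40 for nuclear genes of all biotypes. Over distinct regions it was 0.46 for the 24 of these genes and 0.35 for nuclear genes of all biotypes. Over all pooled regions it was 0.33. These values are given as a description across sites that share libraries. All 8 thresholded genes had a region of both replicates at the summit. The same share over all thresholded regions is not given here. Thresholded regions hold the largest pooled signals, which come from both replicates, so their replicate support is not separate evidence. Each replicate list was then cut to its strongest regions, as many as the thresholded list holds. In replicate 4 all 8 lay among them, and in replicate 5 only W05B2.8, sup-6 and F38E11.10 did. Taking each replicate's own strongest region within 500 bp added M163.13. These 4 genes, 4.04%, were strong in both replicates, against 0.947% of all nuclear genes and 1.38% without piRNA genes. The share was higher for tRNA genes at 4.58%, snoRNA genes at 6.07% and sls-2 genes at 27.8%. It was lower for miRNA genes at 1.92%, and for protein-coding, ncRNA, lincRNA and piRNA genes, and no sls-1 gene was strong in both. Signal scales differed between the lists, with medians of 22.6 in replicate 4 and 9.86 in replicate 5, so only ranks are compared between them.

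**Figure D2:**
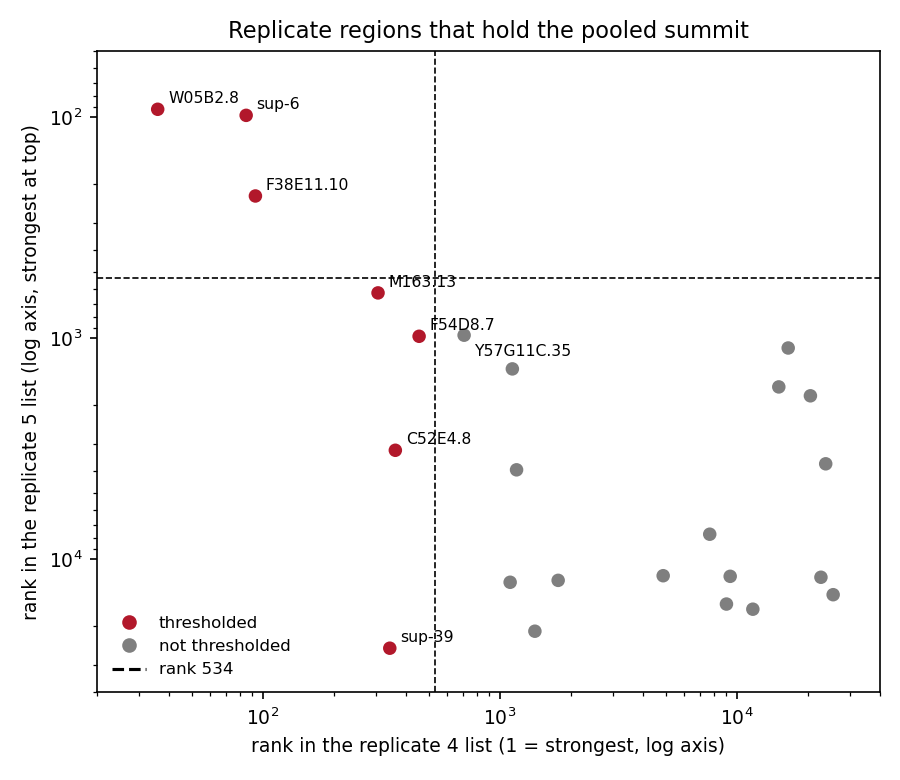
Rank of the region that holds the pooled summit in the replicate 4 list (x, log axis) and the replicate 5 list (y, log axis, strongest at the top) for the 24 distinct regions found in both; red points are thresholded and dashed lines mark the rank equal to the number of thresholded regions. W05B2.8, sup-6 and F38E11.10 are inside both lines, and sup-39 is at rank 343 in replicate 4 and 25233 in replicate 5.

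In the pooled list, summits tended to lie past the end of the genes. The median pooled summit was 191 bp downstream of the gene start, with a range of 297 bp upstream, written −297, to 554. It lay before the gene start for 11 of the 52 genes, inside the gene for 11 and past its end for 30. By replicate the median differed, at 76 bp in replicate 4 and 157.5 bp in replicate 5, each over that list's own strongest regions near the genes. The median gene length was 121 bp, so the replicate 4 median was below it and the tendency was not shared by that list. Pooled medians also differed between families, at −9 bp in family 1, 123 bp in family 2, 233 bp in family 3, 274.5 bp in family 4 and 258.5 bp in family 7.

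At the thresholded regions the summits fell into 2 sets that match the sequences printed above. W05B2.8, F54D8.7 and M163.13, the 3 with TATATAA, had pooled summits from −37 to 37 bp. sup-6, sup-39, F38E11.10 and C52E4.8, without it, had pooled summits from 164 to 262 bp, all past the gene end. Replicate 4 gave −87 to 34 bp for the genes with TATATAA and 171 to 254 bp for the genes without. Replicate 5 gave −8 to 60 bp with TATATAA and 7 to 266 bp without, so the sets overlapped there, through F38E11.10 at 7 bp. The sets were formed after the positions had been seen, and are a description of 7 regions. Over all 52 genes, the 10 with TATATAA within 100 bases before the gene start had a median summit at 14 bp and the 42 without at 217.5 bp. The medians were −32 and 212 bp in replicate 4 and 28 and 230.5 bp in replicate 5. These 52 include the thresholded genes from which the sets were formed. Of the 10, 8 were in family 1, whose genes are 93 to 108 bp long. TATATAA, family and gene length therefore cannot be told apart here.

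**Figure D3:**
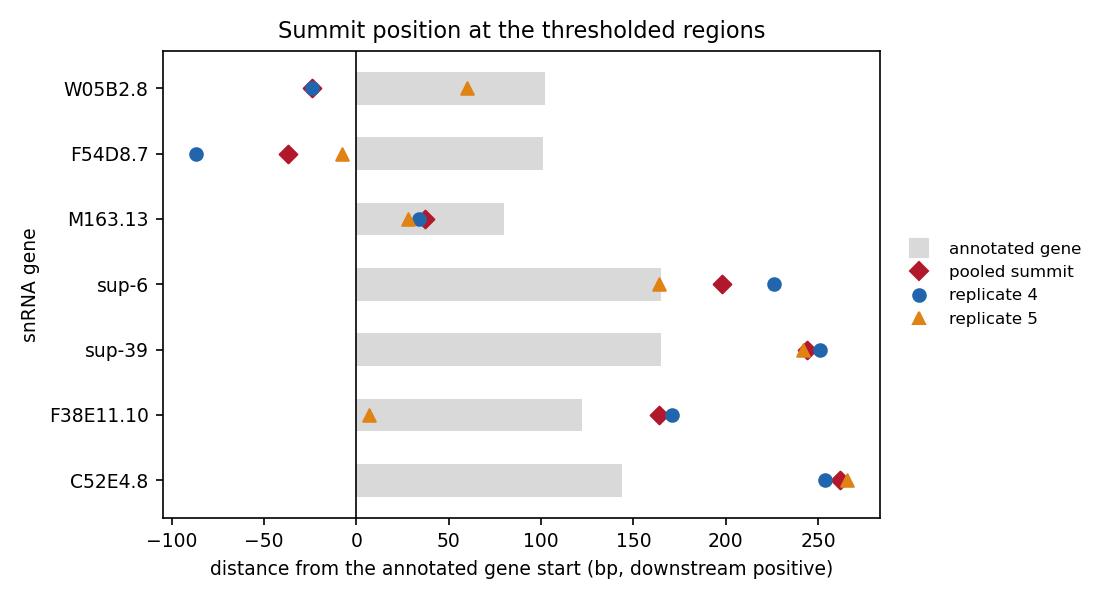
Summit position, in bp from the annotated gene start, at the 7 thresholded regions in the pooled list (diamonds), replicate 4 (circles) and replicate 5 (triangles); grey bars are the annotated genes. W05B2.8, F54D8.7 and M163.13 lie from −87 to 60 bp, and the other genes lie past the gene end except sup-6 at 164 bp and F38E11.10 at 7 bp in replicate 5.

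Windows of 101 bases centred on the pooled summit are shown for 3 genes with a summit past the gene end, on the gene's strand. The sup-6 window starts inside the gene, and those of sup-39 and C52E4.8 lie outside it. None holds CGNAACCC or TATATAA.
sup-6 (II:12944719-12944819, minus strand): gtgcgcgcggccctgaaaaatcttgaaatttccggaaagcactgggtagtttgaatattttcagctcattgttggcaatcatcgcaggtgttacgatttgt
sup-39 (II:6968264-6968364, minus strand): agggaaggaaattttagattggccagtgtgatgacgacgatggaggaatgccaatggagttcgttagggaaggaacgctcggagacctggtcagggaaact
C52E4.8 (V:11980330-11980430, plus strand): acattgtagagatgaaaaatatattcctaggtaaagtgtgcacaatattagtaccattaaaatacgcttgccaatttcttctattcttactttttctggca

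By annotation, 21 of the 48 distinct regions had summits outside protein-coding genes, 12 in introns, 8 in coding exons and 3 each in 5′ and 3′ UTRs; 1 lay in another exon. Of the 7 thresholded regions, 3 were outside protein-coding genes (M163.13, F54D8.7 and C52E4.8), 2 in introns (W05B2.8 and sup-6), 1 in a coding exon (sup-39, in C15F1.5) and 1 in a 3′ UTR (F38E11.10, in the small heat shock protein gene hsp-12.3). The nearest protein-coding start was within 200 bp of the summit for 4 of the 52 genes and for none of the thresholded ones. No run of alternating CA or GT letters of 20 bp or more lay within 200 bp of any of the 52 summits. Shares over all pooled or thresholded regions are not given here for these places, distances and runs. None is therefore called particular to these genes.

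Short sequences before the genes were shared within and between families. CGGAACCC was, tied with the overlapping GCGGAACC, the 8-letter sequence that most members shared on the gene strand from 250 bases before to 50 after the gene start. It was in 26 of the 99 genes, or 26.3%, against 0.375% of 31428 nuclear genes of other kinds, piRNA genes left out. With the third letter free, CGNAACCC on either strand was in 36 genes (36.4%), against 1.39% of those genes. The spliced leader genes among them held CGNAACCC in 10 of 30 (33.3%) and CGGAACCC in 5 of 30 (16.7%). In the 99 genes, on the gene strand, the first base of CGNAACCC lay from −74 to −56. CGNAACCC was in 9 of 13 genes of family 3, 11 of 12 of family 4, 8 of 10 of family 5 and 5 of 24 of family 1, and in none of families 2 and 6. TATATAA was in 15 of the 24 genes of family 1, starting at −31 or −30, and in M163.13 at −30. On either strand it was in 23 genes (23.2%), against 7.58% of the others.

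Regions were found at genes with and without these sequences. Of the 36 genes with CGNAACCC, 21 had a pooled region (58.3%), against 31 of 63 without it (49.2%). Thresholded regions lay at 6 of the 36 and at 2 of the 63. Both sup-39 and mir-1831, which share 1 region, are counted in the 36, the 21 and the 6. Where both sequences were present, in 4 genes, 2 had a region and both were thresholded (W05B2.8 and F54D8.7). With TATATAA alone 8 of 14 had a region, with CGNAACCC alone 19 of 32, and with neither 23 of 49. Within family 1, 8 of the 15 genes with TATATAA had a region, against 1 of the 9 without it. These counts were made after the sequences and regions had been seen, and no test was run on them.

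Sequences more frequent at thresholded than at all pooled summits were also counted at the members' summits, most of which were not thresholded. AGAGAC, on either strand, was in none of the 48 windows of 101 bases at the members' summits, against 5.31% of all pooled regions and 18.7% of thresholded ones. ACGCAG was in 1 of the 48 (2.08%), against 3.45% and 14.0%, and in none of the 7 thresholded members' windows. AGACGCAG, which contains ACGCAG, was in none, against 1.26% and 7.68%. GAGAGA was in 3 (6.25%), against 8.55% and 21.9%, and M163.13 was the 1 thresholded member with it. CGNAACCC was in 3 (6.25%), against 0.673% and 0.936%, and 2 of these windows belonged to W05B2.8 and F54D8.7. In the same windows, ACACAC was in 1 (2.08%), against 5.42% and 17.6%, and in no thresholded member's window. TATATAA, about as frequent at thresholded as at all pooled summits, was in 5 (10.4%), against 1.35% and 1.31%. W05B2.8 and F54D8.7 were the 2 thresholded members with it. TATAAA was in 5 (10.4%), against 7.18% and 7.49%. The counts are small and were not tested, and no match says only that these letters are not in that window.

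Set beside other RNA genes, the 8.08% of these snRNA genes with a thresholded region compared with 38.9% of sls-2 genes (7 of 18) and none of the 12 sls-1 genes, which allows a share of up to 26.5%. The figure was 12.7% for snoRNA genes (44 of 346), 10.9% for tRNA genes (67 of 612) and 3.83% for miRNA genes (10 of 261). Protein-coding genes stood at 2.43%, and piRNA genes at 0.104%. The interval for the snRNA genes, 3.55% to 15.3%, took in the snoRNA, tRNA and miRNA shares and lay below the sls-2 share and above those of protein-coding and piRNA genes. For pooled regions the order was different, with 52.5% of these snRNA genes against 94.4% of sls-2, 78.6% of tRNA, 64.7% of snoRNA, 63.1% of protein-coding and 44.1% of miRNA genes. The protein-coding share lay above the snRNA interval of 42.2% to 62.7%. Counted from the gene start, 50.5% of these snRNA genes had a pooled region, against 29.5% of protein-coding genes; the median gene length was 121 bp and 2027 bp in these classes. Intervals treat genes as separate, although neighbours can share a region, and no test was run.

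**Figure D4:**
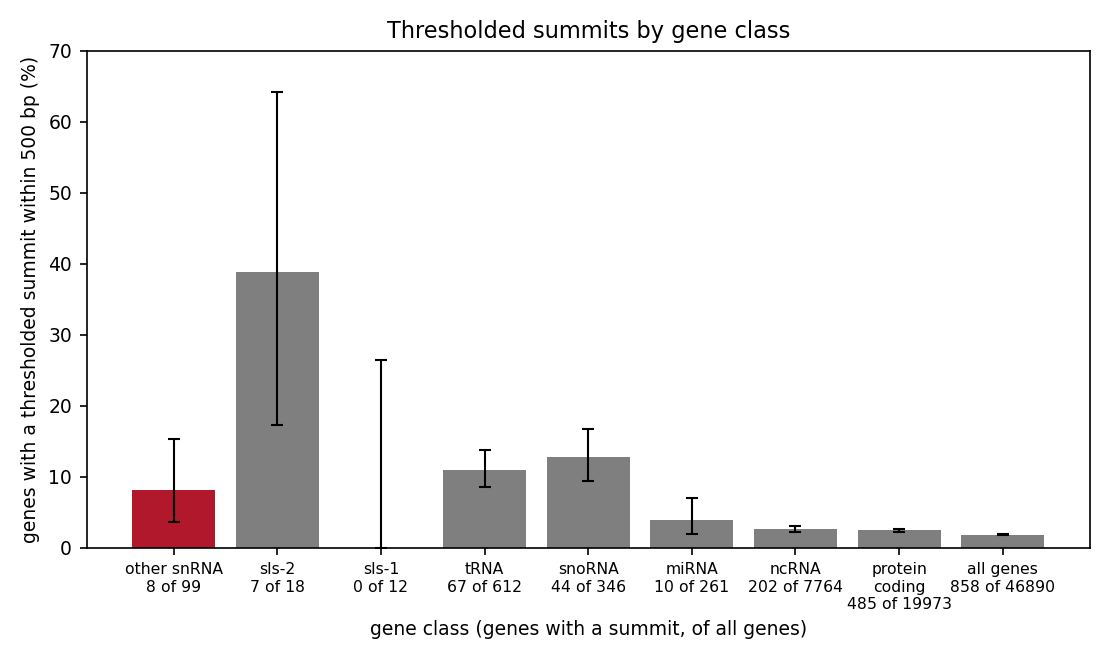
Share of genes with a thresholded summit within 500 bp, by class, with the 99 snRNA genes first and nuclear genes of all biotypes last; error bars are exact binomial 95% intervals and cover counting error only. The snRNA bar, 8.08%, lies below sls-2, tRNA and snoRNA genes and above miRNA, ncRNA, protein-coding and all genes, and its interval overlaps those of tRNA, snoRNA and miRNA genes.

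Genes whose proteins build snRNPs or transcribe snRNAs were listed by name, 73 in all, of which 67 were found in the annotation. In the promoter window, from 1000 bp before to 200 bp after a protein-coding start, 28 of the 67 had a pooled region (41.8%), against 35.6% of protein-coding genes. Thresholded summits were in the windows of 3 (4.48%), against 1.55% of protein-coding genes. These were lsm-6, of the LSm ring, with a pooled signal of 106 and ranks of 143 and 463 in replicates 4 and 5; ints-4, a subunit of the Integrator complex that processes snRNA ends, with 105 and ranks of 280 and 275; and snr-4, through the region shared with C52E4.8. With the window begun 500 bp before the start, the count was 2. lsm-6 and ints-4 were thus strong in both replicates and snr-4 in replicate 4 alone. prp-19, a spliceosome component, came next with 59.7, and snpc-4, which encodes a SNAPc subunit, reached 38.8.

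Uniqueness of the sequence bears on how reads can be placed. At W05B2.8, F54D8.7, F38E11.10 and C52E4.8 none of the 31-letter words of the gene occurred once only in the genome, at sup-39 31.9% did, at sup-6 51.9% and at M163.13 86%; mir-1831 is shorter than such a word. The median was 0% over these thresholded genes, against 23.0% over the 52 genes with a region and 19.7% over the 47 without. In the 500 bp before the gene the median was 100% in each of these groups. How reads matching several copies were placed is not given in the sources used here, and its part in which genes had regions, or in where summits lay, was not tested.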

How the data were processed

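Candidate regions of ZTF-3 ChIP-seq were read from lists for replicate 4, replicate 5 and both pooled, each of 30000 regions of peaks together with background, and from a thresholded list of 534 regions. Per the file headers, each list came from alignments to ce11 and 1 control, and the thresholded list from the irreproducible discovery rate procedure. Which aligner and peak caller were used is not given in the sources used here. The deposited signal is the authors' strength value per region, the deposited −log10 q its significance (at most 2.48 in the pooled list), and the deposited summit offset a score in bp from the region start. The lists hold no read counts, so depth is unknown. A check found the thresholded list to hold the 534 pooled regions with the largest signal. Most regions of a list have 1 fixed width, so width was not used.

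Regions were joined to Ensembl release 115 genes by summit distance to the gene body, 500 bp or less, and the strongest by signal was kept. RefSeq symbols, matched by gene ID for 99 of 99, replaced repeated Ensembl names. A replicate's value is that of its region holding the pooled summit. Families used global alignment (identity and aligned length of 70% or more, inner gaps counted as differences and end gaps not) with single linkage. Sequences were read from the WBcel235 genome; those of the genes of families 1 and 4 are not reported here. Python 3.11.15, pandas 2.3.3, scipy 1.17.1 and Biopython 1.88 were used, and the joining and counting steps were tested on simulated data.

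The members and lists, and the rule for named genes, were chosen with earlier results of these data known. The rule names members that are thresholded, the 5 other members of highest signal, members among the 534 strongest regions of either replicate, those just inside and outside the threshold, each family's strongest member, and pathway genes with a thresholded summit. Genes named beside these (K09B11.11, F38E11.11, T11F9.15, prp-19 and snpc-4) were chosen after their values were seen, as were CGNAACCC, TATATAA, the counts without mir-1831 and the shares without piRNA genes. No tests were run, since the study has 1 group. Alternatives changed the distance, its origin, the overlap, the number of strongest regions, the windows and the identity, or left out a replicate.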

Additional observations from a re-analysis of the deposited data

How the results depend on the processing

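Of the alternatives tried, 47 values moved by less than the spread between replicates or, for counts, by 1.5 times or less, and 7 moved by more. For the 2 medians, that spread was the standard deviation of the single-replicate medians. It is therefore no separate yardstick for leaving out a replicate. The same 8 genes were thresholded at distances of 250 and 1000 bp, from the gene start and by overlap. With a stricter choice, the stronger part of the thresholded list, the count was 3, W05B2.8, sup-6 and F38E11.10. Leaving out each replicate in turn gave 4 to 8 genes, the 4 without replicate 4 being the genes strong in both replicates, and 8 without replicate 5. The median rank was 8934 to 11991.5 and the median summit position 76 to 157.5 bp when a replicate was left out. With windows from 100 bases before to the gene start, TATAAA was in 19 genes, against 31 in the longer window. AGAGAC was in 1 against 10, and GAGAGA in 8 against 15. The shorter window holds fewer letters. These 3 sequences were not more frequent than in nuclear genes of other kinds, piRNA genes left out, in the longer window. TATAAA was there in 31.3% against 34.2%, AGAGAC in 10.1% against 14.6% and GAGAGA in 15.2% against 22.1%. In the shorter window TATAAA was in 19.2% against 16.1%, while AGAGAC and GAGAGA stayed below the other genes. No paired analysis was possible because the study has 1 group. Limits are the 2 replicates, the unknown depth, the absence of an untagged strain among the samples analysed, and near-identical gene copies whose read placement is not given.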
